A study of Homo sapiens with 5 samples.

Results

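The genes described here are those whose symbol is ZNF followed only by digits, a large naming group of human zinc finger proteins, in pancreatic cancer cells given siRNA against LYNX1. The members were chosen by their detection p-values, which had to be under 0.01 on all 5 arrays for the same probe. Where several probes of a gene passed, the brightest on average was used. Of 443 such genes with a probe, 200 met the rule and are called the ZNF members. Another 139 were detected on 1 to 4 arrays and 103 on none, and 1 gene was covered on all 5 arrays only by different probes. The members just inside the limit were ZNF57, ZNF84 and ZNF618, with highest detection p-values of 0.0094, 0.00948 and 0.00966. Just outside it lay ZNF235, ZNF436 and ZNF283, at 0.0101, 0.0123 and 0.0127. Because the rule used detection on every array, a gene that was lost below detection under 1 condition could not be a member.

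RNA was profiled on 5 Illumina bead arrays, 1 per group, from 2 established human pancreatic ductal adenocarcinoma lines. Miapaca cells received an siRNA against the LYNX1 open reading frame (ORF), an siRNA against its 3′ untranslated region (3UTR) or a control siRNA without a target. BXPC3 cells received the ORF siRNA or the control siRNA. In each line siRNA was added 24 h after seeding and RNA was taken after 72 h. Miapaca was grown in DMEM and transfected at 60 pM, the unit as the labels print it, with 4 µl of RNAiMAX. BXPC3 was grown in RPMI-1640 and transfected at 200 nM with 14 µl of Xtreme gene9. Medium, dose and reagent therefore cannot be told apart from the line. No group had a second array, so a single difference between arrays has no error estimate and no p-value.

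Classical zinc finger proteins bind DNA through tandem fingers, each held by a zinc ion. Many of those named ZNF also carry a KRAB domain, which recruits the corepressor TRIM28 and, through it, the histone methyltransferase SETDB1, and many silence transposable elements. Their genes multiplied by tandem duplication and lie in long runs on chromosome 19. Other ZNF-named proteins have no such domain and act in promoter binding, ribosome assembly, translation quality control or mitosis.

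The mean bead intensity was 355.3, 343.5 and 462.7 on the Miapaca ORF, 3UTR and control arrays, and 360.6 and 366.3 on the BXPC3 ORF and control arrays. The 2 LYNX1 probes were detected on no array, with 0.0228 as their smallest detection value, so the knockdown could not be checked. KRT8, KRT18 and KRT19, keratins of epithelial cells, were detected on all 5 arrays. EPCAM and CDH1, which define epithelial cells, were detected on both BXPC3 arrays, while in Miapaca EPCAM passed on 1 array and CDH1 on none. SMAD4, deleted in BXPC3, was detected on neither BXPC3 array and on all 3 Miapaca arrays. The blood marker PTPRC and the fibroblast markers LUM and DCN were detected nowhere. The fibroblast gene COL1A2, however, was detected on all 3 Miapaca arrays and 1 BXPC3 array, and the blood gene CD14 on all 5. Of the endothelial markers, PECAM1 and VWF were detected nowhere and CDH5 on 2 Miapaca arrays and 1 BXPC3 array.

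ZNF genes were detected at a slightly higher share than all genes together. On the Miapaca arrays 267 (ORF), 266 (3UTR) and 276 (control) of the 443 genes passed, or 60.3%, 60.0% and 62.3%, beside 50.1%, 49.5% and 51.6% of all genes. On the BXPC3 arrays 255 (ORF) and 264 (control) passed, or 57.6% and 59.6%, beside 52.4% and 53.5% of all genes. The ZNF members had a median log2 intensity of 6.78, against 8.14 for the 8273 genes detected on all 5 arrays, as a mean over the arrays. Probes differ in how they hybridise, so no gene's level is set against another's below.

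With the ORF siRNA in Miapaca cells the ZNF members did not move as a group, and single members differed from the control in both directions. Of 200 members, 101 lay above the control, or 50.5%, where 52.3% of all genes did. The median log2 difference was 0.004 for the members and 0.031 for all genes. At least 2-fold higher were 9 members, or 4.5%, against 4.65% of all genes, and at least 2-fold lower were 8, or 4.0%, against 5.55%. Both shares are near the background of all genes.

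The members that stood highest with the ORF siRNA were mostly genes of chromosome 19. ZNF837 had a log2 intensity of 6.80 on the ORF array and 6.38 on the 3UTR array, against 5.04 on the control array, a difference of 1.76 with the ORF siRNA. In BXPC3 it read 5.26 with the ORF siRNA and 5.39 with the control siRNA. Its level was thus higher on both siRNA arrays of Miapaca and within 0.13 of the control in BXPC3, but 2 further ZNF837 probes, detected on at most 1 array, gave ORF differences of 0.13 and 0.08. ZNF296 read 9.48 and 9.16 on the ORF and 3UTR arrays, against 8.28 on the Miapaca control array. ZNF784 read 6.94 and 5.93, against 5.74, and ZNF419 read 8.38 and 8.08, against 7.21. The ORF differences of these 3 genes were 1.21, 1.20 and 1.17, and all 3 lay above the control with the 3UTR siRNA as well, ZNF784 by only 0.19. ZNF460 stood at 1.20, ZNF616 at 1.15, ZNF672 at 1.11, ZNF845 at 1.08 and ZNF317 at 1.04. A further ZNF460 probe, detected on 1 array, gave 0.07. Among these 9 members ZNF672 alone is not on chromosome 19.

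The lowest member with the ORF siRNA was ZNF226, at 4.96 on the ORF array and 6.83 on the 3UTR array, against 6.61 on the control array. In Miapaca it was low on the ORF array (difference −1.65) and not on the 3UTR array, and another detected probe gave −1.09. ZNF45 read 5.24 and 6.38, against 6.76, and ZNF226 and ZNF45 belong to the same run of chromosome 19. ZNF22, a factor studied in tooth development, read 8.44 and 9.58, against 9.97. Its difference of −1.53 was accompanied by −0.93 at another detected probe. ZNF670 read 4.67 and 4.96, against 6.16, so both siRNA arrays were low. ZNF12 stood at −1.30, ZNF358 at −1.22, ZNF614 at −1.15 and ZNF302 at −1.04. With the 3UTR siRNA those 4 stood at −0.34, 0.59, −0.20 and 0.36, so that ZNF358 and ZNF302 lay above the control there.

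**Figure D1:**
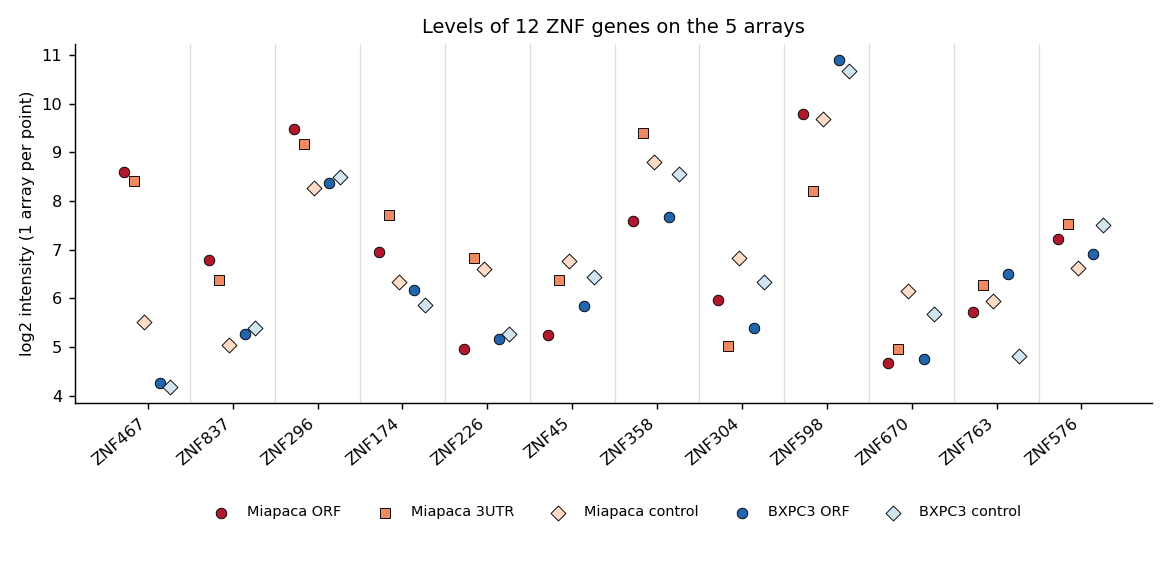
Log2 intensity (vertical axis) of 12 ZNF genes on each of the 5 arrays, 1 point per array, with the siRNA arrays left of the control array in each line; levels are to be read within a gene. ZNF670 is low on all 3 siRNA arrays relative to the control of its line, ZNF226 is low on the Miapaca ORF array and not on the 3UTR array, and ZNF467 is near the bottom of the scale in BXPC3.

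With the 3UTR siRNA in Miapaca the members again lay on both sides of the control in near equal number. This comparison shares its control array with the ORF comparison, so their values are only set side by side. Above the control lay 103 members, or 51.5%, where 51.9% of all genes did, and the median was 0.016, against 0.026 for all genes. At least 2-fold higher were 5 members, or 2.5%, against 3.81% of all genes, and at least 2-fold lower were 10, or 5.0%, against 4.46%.

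ZNF304, a KRAB protein, was the lowest with the 3UTR siRNA. It read 5.96 and 5.03 on the ORF and 3UTR arrays, against 6.83 on the Miapaca control array, and 5.38 with the ORF siRNA in BXPC3, against 6.34 with the control siRNA. All 3 siRNA arrays were therefore below the control of their line. ZNF598, the ubiquitin ligase that marks collided ribosomes, read 9.80 and 8.22 in Miapaca, against 9.68, and the difference of −1.47 with the 3UTR siRNA was −1.18 at another detected probe. ZNF598 was near its control with the ORF siRNA in Miapaca (0.12) and in BXPC3 (0.21).

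ZNF207, a spindle assembly factor that stabilises BUB3, stood at −1.05 with the 3UTR siRNA and −0.66 with the ORF siRNA, and another detected probe gave −0.84 and −0.43. ZNF580 stood at −1.32 and −0.65, while 2 further probes, detected on 3 and 2 arrays, gave −0.90 and 0.08 with the 3UTR siRNA and −1.04 and 0.40 with the ORF siRNA, so its probes disagreed. ZNF618, reported to bind UHRF2, stood at −1.26 and −0.44, next to the detection limit. The other members lower by 2-fold were ZNF215 at −1.28, ZNF319 at −1.23, ZNF670 at −1.20, ZNF557 at −1.09 and ZNF483 at −1.08. For ZNF557 another detected probe gave −0.13, so its probes disagreed. Further ZNF483 probes, detected on at most 1 array, gave −1.01, 0.15 and 0.33, and a further ZNF618 probe, detected on none, gave 0.45.

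The highest with the 3UTR siRNA was ZNF174, a SCAN domain protein, at 6.96 and 7.72 on the ORF and 3UTR arrays, against 6.33 on the Miapaca control array. Its difference of 1.39 was 1.55 at another detected probe, while the remaining ZNF174 probe, detected on 2 arrays, was lower than the control. ZNF821 stood at 1.37, ZNF837 at 1.35, ZNF490 at 1.04 and ZNF134 just past 2-fold. With the ORF siRNA these genes other than ZNF837 stood between 0.51 and 0.63. With the 3UTR siRNA a further ZNF134 probe, detected on 1 array, gave −0.64, and a further ZNF490 probe, detected on none, gave 0.08. The further ZNF837 probes gave 0.62 and −0.10.

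Both Miapaca counts depend on how the arrays were scaled. With each array scaled to its median over all probes, most of which lie at background, the median of all genes moved to −0.438 for the ORF siRNA array and to −0.504 for the 3UTR array. The split past 2-fold then became 1 higher and 38 lower with the ORF siRNA and 2 higher and 39 lower with the 3UTR siRNA, while the members' median stayed within 0.05 of that of all genes. Scaled to the median of the detected probes, an alternative chosen after seeing the data, the splits were 11 and 8 for the ORF siRNA and 7 and 6 for the 3UTR siRNA. With the authors' normalized values the splits were 1 and 1 with the ORF siRNA and 0 and 2 with the 3UTR siRNA. Some of the largest differences had a reading near background. ZNF226 and ZNF670 had bead intensities of 105.1 and 99.4 on the Miapaca ORF array, where the median of all probes was 96.8. ZNF304 had 105.9 on the 3UTR array (median 96.7) and ZNF837 had 120.8 on the control array (median 105.7). With the authors' values ZNF226, ZNF670 and ZNF837 stood at −0.69, −0.55 and 0.76 (ORF siRNA) and ZNF304 at −0.80 (3UTR siRNA).

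ZNF467, a factor of osteoblast and adipocyte differentiation in mouse, is given apart because BXPC3 did not detect it. Its 1 probe read a log2 intensity of 8.60 on the Miapaca ORF array and 8.42 on the 3UTR array, against 5.52 on the Miapaca control array. The differences of 3.08 and 2.90 exceed those of all 200 members in any siRNA comparison. Before background correction its bead intensities were 413.0 (ORF) and 358.6 (3UTR), against 139.5 on the Miapaca control array. The median of all probes on that control array was 105.7, so the size of both differences depends on the background correction. Differences of ZNF467 under other processing are not given here. In BXPC3 it read 4.26 with the ORF siRNA and 4.18 with the control siRNA, under the lowest signals that passed detection there, 4.49 and 4.42. Whether it differs between the BXPC3 arrays could not be measured, and the Miapaca control array lay at least 2.16-fold above the BXPC3 control array.

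In BXPC3 the ORF siRNA array lay close to its control for nearly all members. The SD of the members' log2 differences was 0.338, beside 0.564 with the ORF siRNA in Miapaca, and 0.297 and 0.626 over all genes. The median was −0.035 against 0.003 for all genes, and 89 members, or 44.5%, lay above the control, against 50.3% of all genes. At least 2-fold higher was 1 member, or 0.5%, against 0.23% of all genes, and none was 2-fold lower, against 0.133%. With median scaling over all probes the split was 1 higher and 2 lower, and with the authors' normalized values 0 and 0.

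The gene past 2-fold in BXPC3 was ZNF763, a KRAB protein of chromosome 19. It read 6.49 with the ORF siRNA, against 4.80 with the control siRNA, and 5.71 and 6.27 on the Miapaca ORF and 3UTR arrays, against 5.93 on the Miapaca control array. In Miapaca the ORF difference was −0.22. The deposited bead intensity of ZNF763 on the BXPC3 control array was 106.8, where the median of all probes was 100.4. With the authors' normalized values its BXPC3 difference was 0.69. ZNF638, a nuclear RNA-binding protein that silences retroviral DNA, stood at 0.94 in BXPC3 and 0.09 in Miapaca. ZNF331, an imprinted gene, stood at 0.92 in BXPC3 and 0.44 in Miapaca, and 2 weaker ZNF331 probes gave −0.06 and 0.05 in BXPC3. The lowest in BXPC3 were ZNF304 at −0.96, ZNF670 at −0.93, ZNF358 at −0.88 and ZNF227 at −0.68.

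**Figure D2:**
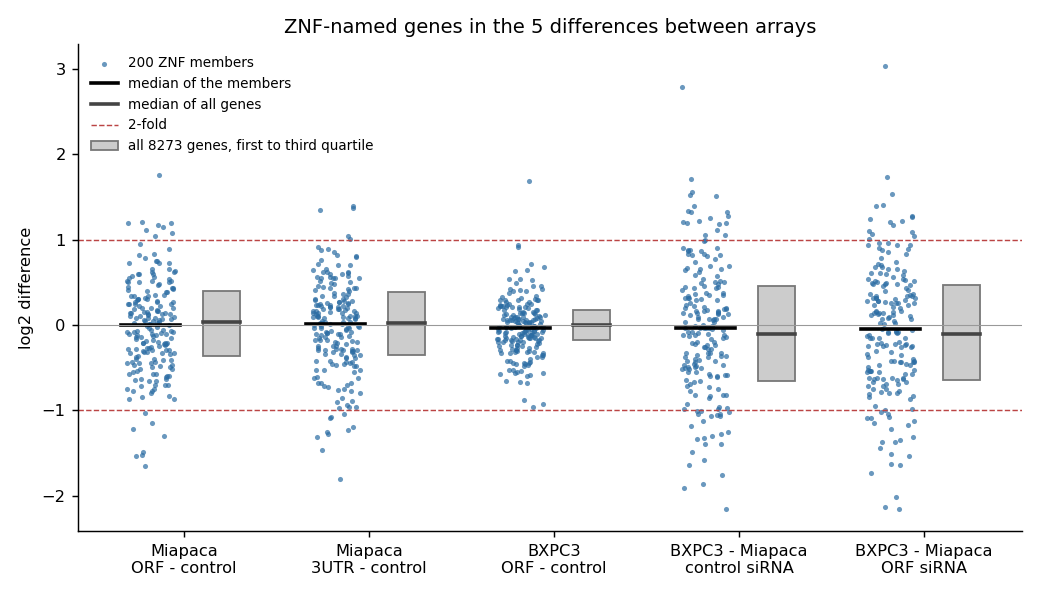
Log2 difference (vertical axis) of the 200 ZNF members in the 5 differences between arrays, 1 point per gene, with the median as a black bar; the grey box spans the quartiles of all 8273 genes and the dashed lines mark 2-fold. The members centre near 0 in every siRNA comparison, spread least in BXPC3 with the ORF siRNA (SD 0.338) and most between the lines (SD 0.789 under control siRNA).

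Both lines received the ORF siRNA, and these 2 comparisons share no array. At least 1.5-fold the same way in both lines were 4 members, or 2%, against 2.41% of all genes, and all 4 were lower. The share of all genes counts both directions, so it gives no background for that direction. ZNF670 stood at −1.49 in Miapaca and −0.93 in BXPC3. Its bead intensities on the ORF arrays lay near background in both lines. They were 99.4 in Miapaca (median of all probes 96.8) and 106.9 in BXPC3 (median 101.5). ZNF358 stood at −1.22 and −0.88, ZNF304 at −0.87 and −0.96, and ZNF45 at −1.53 and −0.59. With the 3UTR siRNA ZNF670 and ZNF304 were lower too (−1.20 and −1.80), whereas ZNF45 stood at −0.39 and ZNF358 at 0.59. A further ZNF670 probe, detected on no array, gave 0.38 (ORF) and −0.14 (3UTR) in Miapaca and −0.26 in BXPC3, and ZNF304, ZNF358 and ZNF45 have 1 probe each.

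Across the members the ORF differences in the 2 lines had a Pearson r of 0.19 and a Spearman rho of 0.18 over 200 genes, beside 0.29 and 0.25 over all genes. Members with the same sign in both lines numbered 106, or 53%, against 58% of all genes. These are descriptions across genes, which are not independent replicates. The opposite ways by 1.5-fold went ZNF576 alone, or 0.5%, against 0.496% of all genes. It stood at 0.60 with the ORF siRNA in Miapaca and −0.59 in BXPC3.

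A limma fit over all 5 arrays, with line and knockdown (any LYNX1 siRNA against control siRNA) as terms, called 0 members and 0 genes for the knockdown term at an adjusted p under 0.05. At an unadjusted p under 0.05 it held 3 members, ZNF670, ZNF304 and ZNF419, and 411 genes, or 4.97%. Their knockdown terms were −1.17 ± 0.25 (SE), −1.18 ± 0.33 and 0.71 ± 0.27 over 3 siRNA and 2 control arrays, each with a limma adjusted p of 0.849. The fit takes the 2 siRNAs as 1 condition, so their difference counts as spread.

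Members with a known role outside transposon silencing did not share a direction. Of the 15 that were measured, ZNF593 and ZNF622, factors of large ribosomal subunit assembly, stood in Miapaca at 0.95 and 0.54 (ORF siRNA) and at 0.76 and 0.33 (3UTR siRNA), while in BXPC3 they stood at −0.02 and −0.31. The promoter factor ZNF143 stood at 0.00, −0.62 and −0.15 in the same order, and ZNF148, which binds GC-rich promoters, at −0.51, −0.10 and −0.06. ZNF395, linked to the hypoxia response, stood at 0.34, −0.89 and −0.15. ZNF410, an activator of CHD4, stood at −0.40, −0.22 and 0.12, and CHD4 itself at −0.40, −0.23 and −0.06. ZNF281, a factor of epithelial to mesenchymal transition, stood at −0.32, 0.05 and 0.34, and ZNF263 at 0.14, −0.27 and 0.15. None of these 8 reached 2-fold in any siRNA comparison. ZNF10, ZNF24, ZNF91, ZNF93 and ZNF335 passed detection on fewer than 5 arrays, and ZNF703 and ZNF750 on none.

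Between the lines the members spread more widely than between siRNA arrays of a line, in both directions. The SD of the log2 differences was 0.789 under control siRNA and 0.781 under the ORF siRNA, beside 0.564, 0.549 and 0.338 in the 3 siRNA comparisons. With median scaling over all probes, however, the count past 2-fold was 43 between the lines under control siRNA and 39 and 41 in the 2 Miapaca siRNA comparisons. Under control siRNA 19 members were at least 2-fold higher in BXPC3 than in Miapaca, or 9.5%, against 11.7% of all genes, and 24 were at least 2-fold lower, or 12.0%, against 14.4%. Under the ORF siRNA, on arrays not used by the first comparison, 16 were higher, against 11.3% of all genes, and 22 were lower, against 14.3%. Higher in BXPC3 by any amount were 96 members under control siRNA, or 48.0%, against 44.9% of all genes, and 99 under the ORF siRNA, or 49.5%, against 44.7%. The median was −0.036 under control siRNA and −0.054 under the ORF siRNA, beside −0.104 and −0.106 for all genes. Past 2-fold the same way under both were 19 members, or 10 higher and 9 lower, against 16.3% of all genes, and none went opposite ways past 2-fold. Median scaling over all probes gave 5 higher and 38 lower under control siRNA, scaling to the detected probes 29 and 14, and the authors' normalized values 10 and 5.

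**Figure D3:**
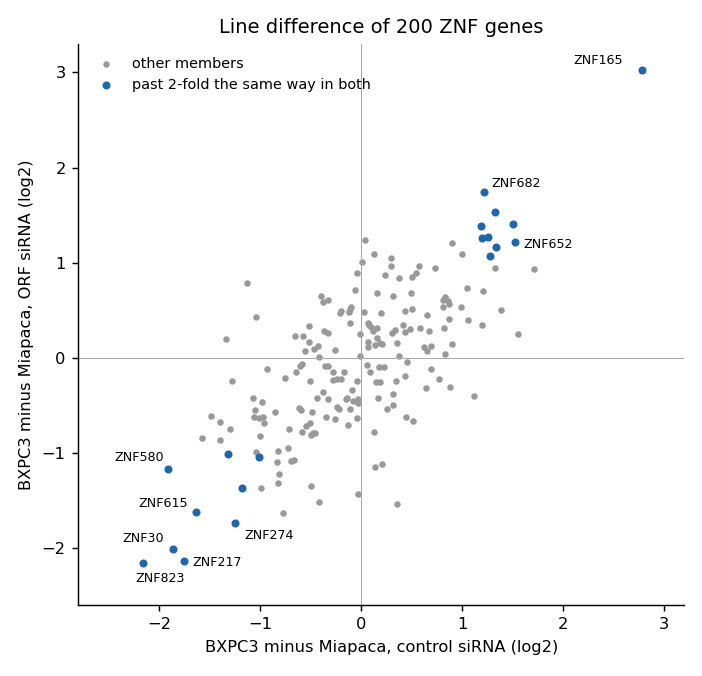
Difference between the lines for each of the 200 ZNF members, BXPC3 minus Miapaca on the log2 scale, under control siRNA (horizontal) and under the ORF siRNA (vertical). The 19 members past 2-fold the same way in both are dark, with ZNF165 at 2.78 and 3.03 and ZNF823 at −2.16 and −2.16 at the ends.

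ZNF165, a cancer-testis antigen, was the highest in BXPC3. It read 8.38 with the ORF siRNA and 8.93 with the control siRNA in BXPC3, against 5.35, 6.84 and 6.14 with the ORF, 3UTR and control siRNA in Miapaca. ZNF652, a DNA-binding partner of the corepressor CBFA2T3, read 10.78 and 10.67 in BXPC3, against 9.57, 9.64 and 9.15 in Miapaca. ZNF770 read 9.59 and 9.62, against 8.18, 8.11 and 8.11. In all 3 genes both BXPC3 arrays lay above all 3 Miapaca arrays, and within BXPC3 the ORF siRNA moved ZNF652 and ZNF770 by 0.11 or less. ZNF503, ZNF786, ZNF223 and ZNF586 were the others outside the run described next, with line differences of 1.19 to 1.34 under control siRNA.

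ZNF823, of chromosome 19, was the lowest in BXPC3, at 5.28 with the ORF siRNA and 5.85 with the control siRNA, against 7.44, 8.19 and 8.01 in Miapaca. Another detected probe gave smaller differences of −0.88 under control siRNA and −1.49 under the ORF siRNA. ZNF217, an oncogene amplified in breast cancer, read 8.14 and 7.92 in BXPC3, against 10.28, 9.88 and 9.68 in Miapaca. ZNF274, which brings SETDB1 to the 3′ ends of zinc finger genes, read 7.89 and 7.71, against 9.62, 9.53 and 8.96. Another detected ZNF274 probe gave −1.20 and −1.92. ZNF30 stood at −1.86 and −2.02 and ZNF615 at −1.64 and −1.63 under control and ORF siRNA, and the others were ZNF580, ZNF23, ZNF583 and ZNF618.

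Over all 5 arrays the line term of the limma fit called 38 members at an adjusted p under 0.05. Higher in BXPC3 were 15, or 7.5% of the members beside 11.3% of all genes, and lower were 23, or 11.5% beside 15%. ZNF823 had a line term of −2.37 ± 0.30 (SE) and a limma adjusted p of 0.00308. ZNF217 stood at −1.86 ± 0.25 (adjusted p = 0.00356) and ZNF165 at 2.50 ± 0.45 (adjusted p = 0.00947), with 2 BXPC3 and 3 Miapaca arrays. Of the 15 higher members 8 lie on chromosome 19, and of the 23 lower members 9. These arrays are the only ones of each line, no group was repeated, and the fit has 2 residual degrees of freedom. The spread behind its p-values comes from the difference between the 2 siRNAs and from how the siRNA difference varies between the lines. It does not come from repeat cultures, and the lines differ in medium, dose and reagent too. The calls depend on single arrays, since leaving out the Miapaca control, the BXPC3 control or the BXPC3 ORF array left 0 members called, and leaving out the Miapaca ORF or 3UTR array left 61 or 62. All 38 kept their sign in each of these fits. Members whose ranges in the 2 lines did not overlap numbered 55 higher in BXPC3 (27.5%, against 24.6% of all genes) and 52 lower (26%, against 34.1%).

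Chromosome 19 carries 241 of the ZNF genes in RefSeq, of which 222 had a probe and 87 were members. In Miapaca the 87 members had median differences of −0.088 (ORF siRNA) and 0.078 (3UTR siRNA), and in BXPC3 of −0.086. The 113 members on other chromosomes had 0.033, −0.029 and −0.024, and the 470 other detected genes of chromosome 19 had 0.226, 0.118 and 0.013. With the ORF siRNA in Miapaca 8 of the 87 (9.2%) were 2-fold higher and 5 (5.75%) lower, against 1 (0.88%) higher and 3 (2.65%) lower of the 113 elsewhere. Other genes of chromosome 19 were 8.72% higher and 3.19% lower. The share of ZNF members that stood high on the chromosome was thus close to that of its other genes, while their median lay below that of its other genes.

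Runs of ZNF genes were taken along the RefSeq order, with neighbouring starts at most 500 kb apart and at least 5 members, and are named by their first and last gene. There were 8, with 78 of the 87 members. No run moved together with an siRNA by as much as 0.5 in its median. With the ORF siRNA in BXPC3, where 50.3% of all genes lay above the control, 1 of 9 members did in the run from ZNF575 to ZNF180 (median −0.25) and 0 of 5 in the run from ZNF565 to ZNF573 (median −0.25). In the other 6 runs the counts were 5 of 5 from ZNF101 to ZNF254 (median 0.13), 5 of 8 from ZNF628 to ZNF835 (0.10), 3 of 6 from ZNF414 to ZNF846 (0.09), 7 of 13 from ZNF175 to ZNF331 (0.04), 6 of 11 from ZNF653 to ZNF791 (0.03) and 7 of 21 from ZNF264 to ZNF446 (−0.13). The run medians thus lay on both sides of 0. In Miapaca the 3UTR siRNA gave 8 of 9 above the control in the ZNF575 to ZNF180 run (median 0.22), where 51.9% of all genes were above, and the ORF siRNA 4 of 9 (median −0.09), where 52.3% were. Farther from 0 with the 3UTR siRNA lay ZNF414 to ZNF846 (−0.43, 2 of 6 above) and ZNF101 to ZNF254 (−0.29, 2 of 5). With the ORF siRNA in Miapaca the run medians ranged from −0.24 (ZNF565 to ZNF573, 1 of 5) to 0.205 (ZNF628 to ZNF835, 5 of 8).

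Between the lines the runs differed more. All 5 members of the run from ZNF101 to ZNF254 were higher in BXPC3, with a median of 1.22 under control siRNA and 1.20 under the ORF siRNA. Of all genes 44.9% and 44.7% were higher in BXPC3. Members had to be detected in both lines, so genes of the run detected only in Miapaca are not in these medians. ZNF682 read 10.66 and 10.26 with the ORF and control siRNA in BXPC3, against 8.92, 8.70 and 9.04 with the ORF, 3UTR and control siRNA in Miapaca. ZNF430 read 12.68 and 12.58, against 11.61, 11.42 and 11.31, and ZNF486 read 11.53 and 11.36, against 10.25, 10.18 and 10.11. The line differences under control siRNA were 1.22, 1.27 and 1.25 for these 3 genes, 0.90 for ZNF738 and 0.54 for ZNF14.

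The probes of this run did not all show the difference. A further detected ZNF14 probe gave −0.02 under control siRNA and 0.04 under the ORF siRNA. A ZNF430 probe detected on 3 arrays gave −0.34 and −0.18, and 2 further ZNF682 probes, detected on at most 1 array, gave −0.04 and −0.16 under control siRNA. ZNF486 and ZNF738 have 1 probe each. Genes of a run are close copies, and whether these probes also bind neighbouring transcripts was not tested.

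In the same run 4 genes that are not members went the other way. ZNF101, ZNF431, ZNF91 and ZNF254 were detected on neither BXPC3 array and on all 3 Miapaca arrays. ZNF91, which silences SVA elements, read 4.88 and 4.37 with the ORF and control siRNA in BXPC3, against 7.71, 7.07 and 7.91 with the ORF, 3UTR and control siRNA in Miapaca. It was at least 11.2-fold lower on the BXPC3 control array. Of the 29 genes of this run with a probe, 5 were detected on each BXPC3 array. On the Miapaca ORF and 3UTR arrays 10 were, and on the Miapaca control array 12. Of all 443 ZNF genes 57.6% and 59.6% were detected on the BXPC3 ORF and control arrays and 60.0% to 62.3% on the Miapaca arrays. Of all genes 52.4% and 53.5% were detected in BXPC3 and 49.5% to 51.6% in Miapaca.

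**Figure D4:**
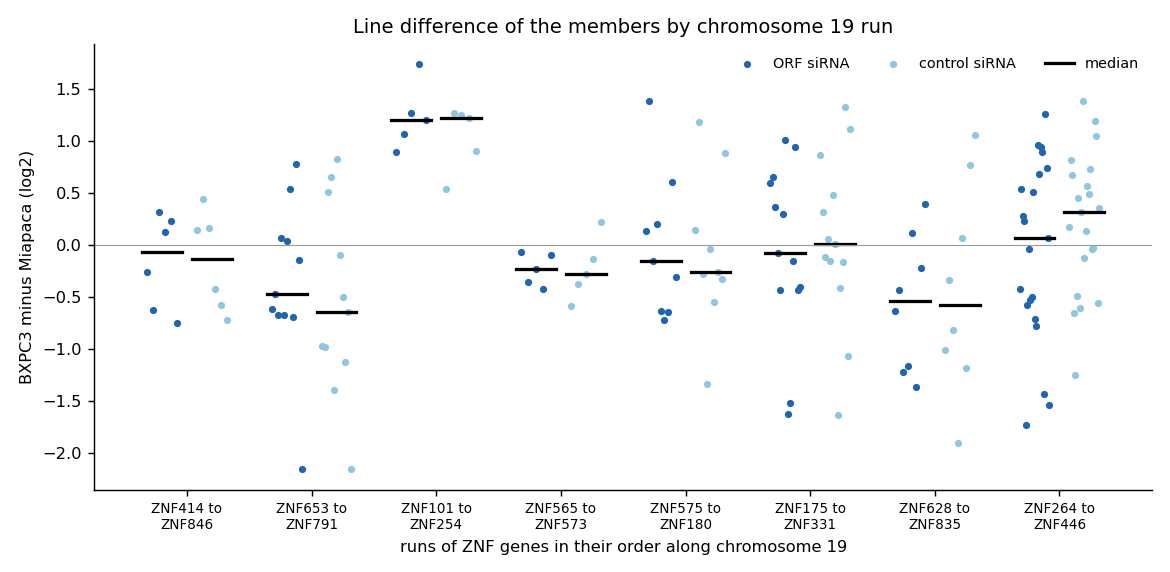
Line difference of the members, BXPC3 minus Miapaca on the log2 scale (vertical), in the 8 chromosome 19 runs in their order along the chromosome, under the ORF siRNA (left of each pair) and the control siRNA (right), with medians as bars. All 5 members of the ZNF101 to ZNF254 run lie above 0 under both siRNAs. The other runs hold members on both sides of 0 except ZNF565 to ZNF573 under the ORF siRNA. Genes of a run that were not detected on all 5 arrays are not shown.

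The promoters of these genes share a stretch, which is shown because it is common to the genes higher in BXPC3 and to those detected only in Miapaca. RefSeq promoters (GRCh38.p14, 250 bases before to 50 after the start) were found for 8 of the 9 genes, ZNF738 being the exception. All 8 hold GTCCAATCAGG, which contains the letters of the CCAAT box bound by the factor NF-Y, on the strand of the gene. Each is printed 5′ to 3′ as 30 bases with the shared stretch in capitals, first ZNF14, ZNF430, ZNF486 and ZNF682, then the 4 genes detected only in Miapaca.
ZNF14: attggatctGTCCAATCAGGacctcagctg
ZNF430: cagggaaccGTCCAATCAGGcacgcaggtg
ZNF486: ctggaaaccGTCCAATCAGGcaggcagctg
ZNF682: gtgggaactGTCCAATCAGGtgcgcagcca
ZNF101: cggcaaactGTCCAATCAGGtgcgccggga
ZNF431: ctgggaaccGTCCAATCAGGcacgcagctg
ZNF91: ctgggaactGTCCAATCAGGcacaaagctg
ZNF254: ctgggaactGTCCAATCAGGcacacagctg

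The 8 stretches begin 54 to 72 bases before the start of their gene. The ZNF430 sequence lies on the plus strand at chr19:21020589-21020618 and the ZNF91 sequence on the minus strand at chr19:23395511-23395540. The letters were chosen after the promoters were read, as the longest run, of 11 letters, present in all 8. Searched on both strands, they were in 62 of 27305 promoters (0.227%). On chromosome 19 they were in 29 of the 210 ZNF promoters (13.8%) and in 3 of the other 1300 promoters (0.231%). Among the members they were in 9 of 173 with a promoter (5.2%). These included 4 of 4 in the ZNF101 to ZNF254 run, 2 of 10 in the ZNF653 to ZNF791 run and none in the other 6 runs. The 62, the 29 and the 9 include genes that defined the letters and so match by construction. Their shares are therefore no independent check. A match of letters is a description of the window and not a site. Over the whole window the members' promoters had a median GC content of 62.7%, with 61.0% on chromosome 19 and 64.3% elsewhere, against 65.3% for all detected genes and 65.7% for other genes of chromosome 19.

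The run from ZNF653 to ZNF791 was lower in BXPC3, with a median of −0.65 under control siRNA and −0.47 under the ORF siRNA, and 8 and 7 of its 11 members lay below 0. It holds ZNF823 and, at −1.40 and −0.67, ZNF627, whose other detected probe gave −0.65 and −0.90. The run from ZNF628 to ZNF835 was also lower, with medians of −0.58 and −0.54, led by ZNF580 under control siRNA (−1.91) and ZNF583 under the ORF siRNA (−1.37). The further ZNF580 probes gave −0.61 and −0.05 under control siRNA and 0.51 and −0.22 under the ORF siRNA, where the probe used had −1.17. The largest run, ZNF264 to ZNF446 with 21 members, had medians of 0.32 and 0.07. The 470 other detected genes of chromosome 19 had line medians of −0.25 under control siRNA and −0.44 under the ORF siRNA. Of these genes 38.7% and 27.2% lay above 0, against 44.9% and 44.7% of all genes. Under the ORF siRNA the medians of both lower runs were thus near that of the chromosome's other genes.

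The run from ZNF175 to ZNF331 differed in detection and not in the median of its members, which needed detection on all 5 arrays. Of its 35 genes with a probe, 24 were detected on the BXPC3 ORF array and 26 on the BXPC3 control array. On the Miapaca ORF, 3UTR and control arrays 19, 18 and 15 were. Over all genes with a probe the shares were 52.4% and 53.5% in BXPC3 and 50.1%, 49.5% and 51.6% in Miapaca. Over all ZNF genes they were 57.6% and 59.6%, and 60.3%, 60.0% and 62.3%. Its 13 members had line medians of 0.00 under control siRNA and −0.08 under the ORF siRNA. ZNF701, ZNF600, ZNF320 and ZNF525 were detected on both BXPC3 arrays and on no Miapaca array. ZNF600 differed little, at 4.91 and 5.03 in BXPC3, against 4.66, 4.41 and 4.66 in Miapaca. ZNF525 read 5.70 and 6.22 in BXPC3, against 4.52, 4.22 and 4.27 in Miapaca. ZNF649 went the other way, at 4.48 and 4.28 in BXPC3, below detection, against 6.65, 5.38 and 6.43 in Miapaca, and was at least 4.04-fold lower on the BXPC3 control array.

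**Figure D5:**
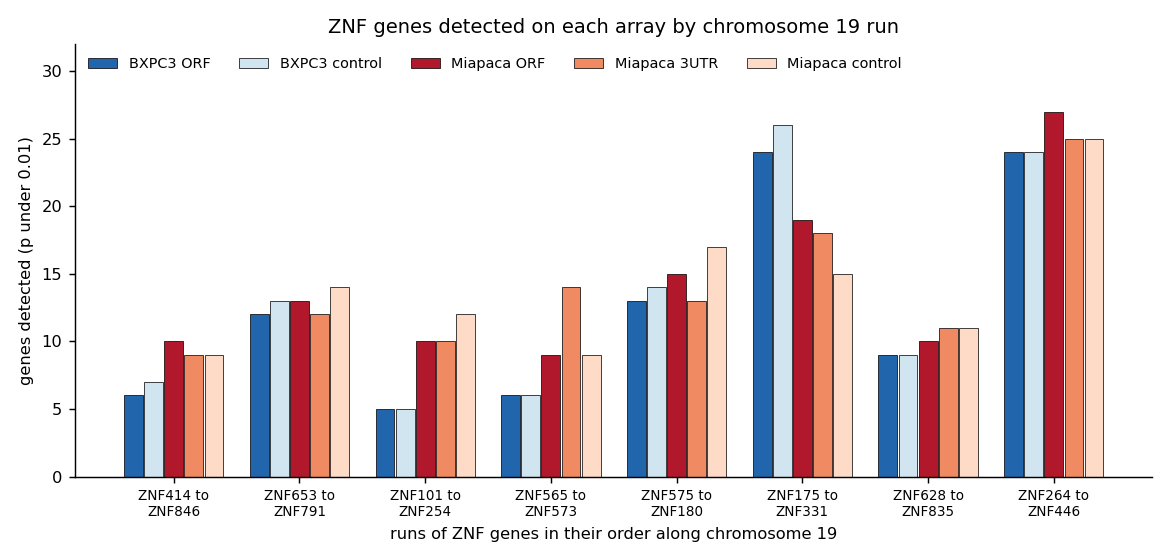
Number of ZNF genes with a detection p under 0.01 (vertical) on each array in the 8 chromosome 19 runs, with the BXPC3 arrays left of the Miapaca arrays. In the ZNF175 to ZNF331 run 24 and 26 genes were detected on the BXPC3 arrays, against 15 to 19 on the Miapaca arrays, and in the ZNF101 to ZNF254 run 5 on each BXPC3 array, against 10 to 12 on the Miapaca arrays.

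Over the genome 13 ZNF genes, or 2.93% of the 443 with a probe, were detected on both BXPC3 arrays and no Miapaca array, against 4% of all genes. Detected on all 3 Miapaca arrays and neither BXPC3 array were 19, or 4.29%, against 2.08% of all genes. Folds of genes below detection in 1 line are lower bounds between the control arrays, taken against the higher of the probe's own reading and the smallest signal that passed detection on the array without the gene. Some bounds were small, at 1.11 for ZNF346 and 1.26 for ZNF471 (Miapaca only) and 1.05 for ZNF251 and 1.29 for ZNF600 (BXPC3 only). The counts thus include genes that lay close to the detection limit in both lines. ZNF462, a factor of brain development, was at least 7.76-fold higher in BXPC3, at 7.88 and 7.78 in BXPC3, against 4.23, 4.34 and 4.83 in Miapaca. ZNF697 was at least 6.55-fold higher and ZNF827, which recruits chromatin remodellers to telomeres, at least 6.19-fold. Within BXPC3 these 3 genes differed by 0.13 or less between the ORF and control arrays. Among genes detected only in Miapaca, ZNF91 had the largest bound and ZNF256, of the ZNF264 to ZNF446 run, was at least 5.75-fold lower in BXPC3. It read 4.20 and 4.21 in BXPC3, against 7.16, 6.92 and 6.94 in Miapaca.

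A second probe of the same gene gives a check on single values. The 38 members with more than 1 detected probe gave 41 pairs of probes. In the ORF and 3UTR comparisons in Miapaca 53.7% of the pairs had the same sign in each, in BXPC3 58.5%, and between the lines 73.2% under either siRNA. The median difference between paired probes was 0.41 and 0.43 in Miapaca, 0.24 in BXPC3 and 0.41 between the lines, on the log2 scale. A difference below about that size in 1 probe is therefore within the disagreement between probes. The values are medians and not bounds, so larger differences can lie within it too. A single probe on the array is all that 123 members have.

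A broad list of corepressor and heterochromatin genes, not only those of the KRAB pathway, had a median below that of the members in Miapaca. Of 24 corepressor and heterochromatin genes 20 were detected on all 5 arrays. Their median in Miapaca was −0.426 (ORF siRNA) and −0.348 (3UTR siRNA), and in BXPC3 it was −0.115. For all genes the medians were 0.031, 0.026 and 0.003. On the Miapaca ORF array 4 of 20, or 20%, were at least 2-fold lower, where 5.55% of all genes were: TRIM24 at −1.70, SMARCAD1 at −1.30, CBX1 at −1.03 and TRIM33 at −1.03. None was 2-fold higher, where 4.65% of all genes were. Above the control lay 7 of 20, or 35.0%, where 52.3% of all genes did, among them the deacetylase HDAC1 at 0.82 and MORC2 at 0.77. With the 3UTR siRNA CBX1 was 2-fold lower, at −1.18, or 5.0% of the list beside 4.46% of all genes. There 4 of 20 lay above the control, with HDAC1 at 0.78, and in BXPC3 none passed 2-fold. CBX1, which encodes a heterochromatin protein, read 7.98 and 7.84 in Miapaca, against 9.01, and 6.28 with the ORF siRNA in BXPC3, against 7.01. TRIM28, the KRAB corepressor itself, read 9.33 and 9.37 on the Miapaca ORF and 3UTR arrays, against 9.81 on the control array, and 9.50 with the ORF siRNA in BXPC3, against 9.60. SETDB1 stood at 0.16, −0.10 and −0.32 in those 3 comparisons.

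Other zinc finger families were summarised by their medians beside those of the members. With the ORF siRNA in Miapaca the 21 ZBTB genes had 0.09, the 12 ZSCAN or ZKSCAN genes 0.06, the 4 ZFP genes 0.29 and the 39 RNF genes, whose RING finger is a different fold, 0.06. With the 3UTR siRNA the medians were 0.05, 0.02, 0.22 and 0.03, and in BXPC3 −0.10, −0.05, 0.08 and 0.10. All 4 ZFP genes lay above the control with the ORF siRNA in Miapaca and 2 of 4 with the 3UTR siRNA. Under control siRNA the line medians, BXPC3 minus Miapaca, were 0.32, −0.02, −0.05 and −0.11, where the members had −0.04. Under the ORF siRNA they were −0.06, −0.16, −0.21 and −0.16, where the members had −0.05.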

How the data were processed

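Established human cell lines were profiled on 5 Illumina arrays, 1 per group. For 48107 probes the authors deposited a mean bead intensity per array, not normalized per the file headers, and a detection p-value. Neither the scanner software nor how detection was computed is stated in the labels or headers. The authors also deposited normalized intensities without a stated method. One probe with a missing value was left out. Background was estimated from the deposited intensities and p-values and corrected by normexp with an offset of 16, arrays were quantile-normalized and log2 values taken from the deposited intensities, all by the neqc function (limma 3.58.1 under R 4.3.3). Fits used lmFit and eBayes with Benjamini-Hochberg adjustment over 8273 genes and were tested on simulated data.

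The platform annotation named 30113 probes with 1 symbol and 8 with several, and 17986 were not listed. Symbols were updated through RefSeq (29081 by accession, 1011 by Entrez identifier, 21 kept), which changed 27. Chromosome and order came from the RefSeq gene table and sequences from RefSeq promoters (GRCh38.p14). Other steps ran in Python 3.11.15 (matplotlib 3.10.9, numpy 2.4.6, pandas 2.3.3).

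Single comparisons have 1 array per group and no test. Named genes were those past 2-fold in an siRNA comparison, the 10 highest and 10 lowest between lines, members past 1.5-fold in both lines, extremes of each run and members with a known role; genes detected in 1 line and run members were named after their values were seen. The members, lists and tests were chosen with earlier results of these data known. Protein features were not analysed here. Alternatives covered scaling, offset, probe choice, detection limit, symbols and size rule.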

Additional observations from a re-analysis of the deposited data

Results flagged for a closer look

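ZNF576, a gene of the ZNF575 to ZNF180 run, is the member that went opposite ways by at least 1.5-fold with the ORF siRNA in the 2 lines. It stood at 0.60 in Miapaca, where it read 7.22 with the ORF siRNA and 6.63 with the control siRNA, and at −0.59 in BXPC3, where it read 6.92 with the ORF siRNA and 7.51 with the control siRNA. The 3UTR siRNA in Miapaca gave 0.91. With 1 array per group the difference between the lines was not tested, and the share of such members (0.5%) is that of all genes (0.496%). The gene has 1 probe.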

How the results depend on the processing

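Counts of members past 2-fold depended on the processing. Each alternative that changed normalization, offset, probe choice, the limit on the detection p or symbols left the sign of these members unchanged. They were the 17, 15 and 1 in the siRNA comparisons and the 43 and 38 between the lines (control and ORF siRNA). These members were picked for large differences on the same arrays, so keeping the sign is a weak check. With the ORF siRNA in Miapaca the count of 17 became 39 with median scaling (median −0.485), 6 with an offset of 50, 2 with the authors' normalized values and 56 at 1.5-fold. With the 3UTR siRNA the count of 15 became 41 with median scaling (median −0.474), 5 with an offset of 50, 2 with the authors' values, 24 with detection on at least 1 array and 54 at 1.5-fold, and scaling to detected probes moved its median to 0.151. In BXPC3 the count of 1 became 3 with median scaling (median −0.153), 0 with the authors' values, 2 with a detection p under 0.05, 2 with detection on at least 1 array and 15 at 1.5-fold. Between the lines under control siRNA the count of 43 became 24 with an offset of 50, 15 with the authors' values, 77 with detection on at least 1 array and 88 at 1.5-fold, and the median moved to −0.345 with median scaling and 0.176 with scaling to detected probes. The cause of these shifts was not tested.

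The line term called 25 members in place of 38 with the authors' values, 24 of them shared, and 0 to 62 when 1 array was left out. Without 1 array the fit has 1 residual degree of freedom, and a line left with 1 array is assumed to vary like the other. The knockdown term called 0 members under each alternative. The members' median on chromosome 19 minus that on other chromosomes moved by less than 0.1 with median scaling, to −0.045 in place of −0.121 with the ORF siRNA in Miapaca and to 0.186 in place of 0.107 with the 3UTR siRNA, and the number of runs was 8, or 7 at 1 Mb. No paired analysis was possible because each group has 1 array. The planned protein feature counts were not run. The number of arrays limits the precision of all values.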
